A study of Drosophila melanogaster with 9 samples.

Results

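The genes described here are the tubulin genes of *Drosophila melanogaster*, measured in adult testes in which the bromodomain gene *tbrd-2* was knocked down in the male germline. The list held 10 genes by name, the alpha-tubulins *alphaTub84B*, *alphaTub84D*, *alphaTub85E* and *alphaTub67C*, the beta-tubulins *betaTub56D*, *betaTub60D*, *betaTub85D* and *betaTub97EF*, and the gamma-tubulins *gammaTub23C* and *gammaTub37C*. A probe set counted for a gene when the array annotation gave it that symbol alone, and 8 of the 10 genes had such a probe set, 1 each, among 18952 probe sets and 11942 named genes in all. *alphaTub84B* and *gammaTub23C* had none and were not analysed here.

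RNA of whole testes from males of 0 to 2 days, kept at 30°C, was hybridised to Affymetrix *Drosophila* Genome 2.0 arrays, with 3 arrays for each of 3 genotypes. Knockdown males (*bam*≫*tbrd-2RNAi*) carried 2 copies of the *bam*-Gal4 driver, on chromosomes X and III, and 1 copy of the *tbrd-2RNAi* hairpin on chromosome III. The *bam*-Gal4 control carried the 2 driver copies without the hairpin, and the undriven *tbrd-2RNAi* control carried 1 hairpin copy without the driver. Each array had its own RNA from a separate pool of animals, 30 by the labels and 25 by the study's methods. The *bam* driver acts in dividing germ cells before they become spermatocytes, so the hairpin was not directed at the somatic cells that a whole testis also holds. In both controls chromosome III stood over one marked with *Sb*, which the knockdown genotype lacked. For the tubulin genes on chromosome III (*alphaTub84D*, *alphaTub85E*, *betaTub85D* and *betaTub97EF* on arm 3R, *alphaTub67C* on arm 3L), that difference and the knockdown cannot be told apart. The same limit holds for all other genes of chromosome III named below, among them *CG7794*, *t-Grip84*, *t-Grip128*, *Plp*, *mgr*, *Act87E* and *Act79B*. Only the controls had the marked chromosome, so any effect of it on genes elsewhere cannot be told apart from the knockdown either. The other tubulin genes with a probe set were *betaTub56D* and *betaTub60D* on arm 2R and *gammaTub37C* on arm 2L.

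Microtubules are built from dimers of alpha- and beta-tubulin, and gamma-tubulin sits in a ring complex that starts new microtubules at centrosomes and other sites. In the fly testis, microtubules form the spindles of mitosis and meiosis, the manchette-like arrays beside the elongating spermatid nucleus and the axoneme of the sperm tail. *betaTub85D* encodes the testis beta-tubulin that serves in spermatocytes and spermatids, whereas *betaTub60D* and *alphaTub85E* are known mainly from muscle and other somatic cells, including the cyst cells that enclose the germline.

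All values are log2 expression values, so a difference of 1 is a factor of 2, and the spread is between arrays of 1 genotype. Values of the 9 arrays had medians between 5.86 and 5.96 and arrays of the same genotype correlated at 0.988 to 0.997 across probe sets. The knocked-down gene itself was at 8.06, 7.82 and 8.05 on the knockdown arrays, at 10.52 to 10.73 in *bam*-Gal4 and at 10.19 to 10.39 in undriven testes. *tbrd-2* transcript was therefore at 16.3% of the *bam*-Gal4 and 19.8% of the undriven level. Arrays differed in transcripts of neighbouring organs. The mean log2 level of 14 accessory gland and ejaculatory duct genes was 9.94 to 11.68 on the knockdown arrays, 8.27 to 11.72 in *bam*-Gal4 and 9.13 to 10.20 in undriven testes. The median log2-fold change of these genes in knockdown was 0.8 against *bam*-Gal4 and 1.06 against undriven testes. Of the 14, 0 passed the test described below against both controls, where 7.19% of all probe sets were higher and 5.88% lower. The mean level of 7 gut genes reached 7.71 on knockdown array 3 and 7.12 on undriven array 3 against 5.52 to 6.15 on the other arrays. A fit without knockdown array 3 (highest of its genotype in both lists), *bam*-Gal4 array 2 (highest of its genotype in accessory gland genes) and undriven array 3 (highest of its genotype in gut genes) left 2 tubulin probe sets called against each control. They were *alphaTub85E* and *betaTub60D*, and their values without these arrays stand beside the full results.

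Of the 8 tubulin genes, *alphaTub85E* and *betaTub60D* rose against both controls when *tbrd-2* was knocked down, and none fell. *alphaTub85E* was 1.58-fold higher than in *bam*-Gal4 and 1.52-fold higher than in undriven testes, and *betaTub60D* was 1.33-fold and 1.28-fold higher. *betaTub85D* and the broadly expressed *betaTub56D* did not pass the test in either comparison. A call here means an adjusted p under 0.05 in a limma fit of all 9 arrays, with the Benjamini-Hochberg correction taken over 18952 probe sets. Against *bam*-Gal4, 2 of 8 tubulin probe sets were higher where 10.6% of all probe sets were, and 0 of 8 were lower where 8.07% were. Against undriven testes, 2 of 8 were higher with a background of 9.96%, and 0 of 8 were lower with a background of 9.1%. Against both controls together the backgrounds were 7.19% higher, with 2 of 8 tubulin probe sets, and 5.88% lower, with 0 of 8. With so few probe sets, these counts do not set the tubulin genes apart from the other probe sets. Both comparisons use the same 3 knockdown arrays and are not independent of each other.

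No tubulin probe set reached the study's limit of a log2-fold change of 1 in size. With that limit added, 1.29% of all probe sets were called against *bam*-Gal4, 1.26% against undriven testes and 0.38% between the controls. The median log2-fold change of the 8 tubulin probe sets was -0.02 against *bam*-Gal4 and -0.07 against undriven testes, beside -0.02 and -0.03 for all probe sets. Between the controls, 0 of 8 tubulin probe sets were called in either direction, where 1.21% of all probe sets were lower and 0.865% higher in *bam*-Gal4. At an unadjusted p under 0.05 the controls also differed in 0 of the 8 tubulin probe sets. The smallest of these limma p-values was 0.165, of *betaTub97EF*, which ranked 4707 among 18952 probe sets. With so few members, no likeness particular to the tubulin genes is read from this.

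**Figure D1:**
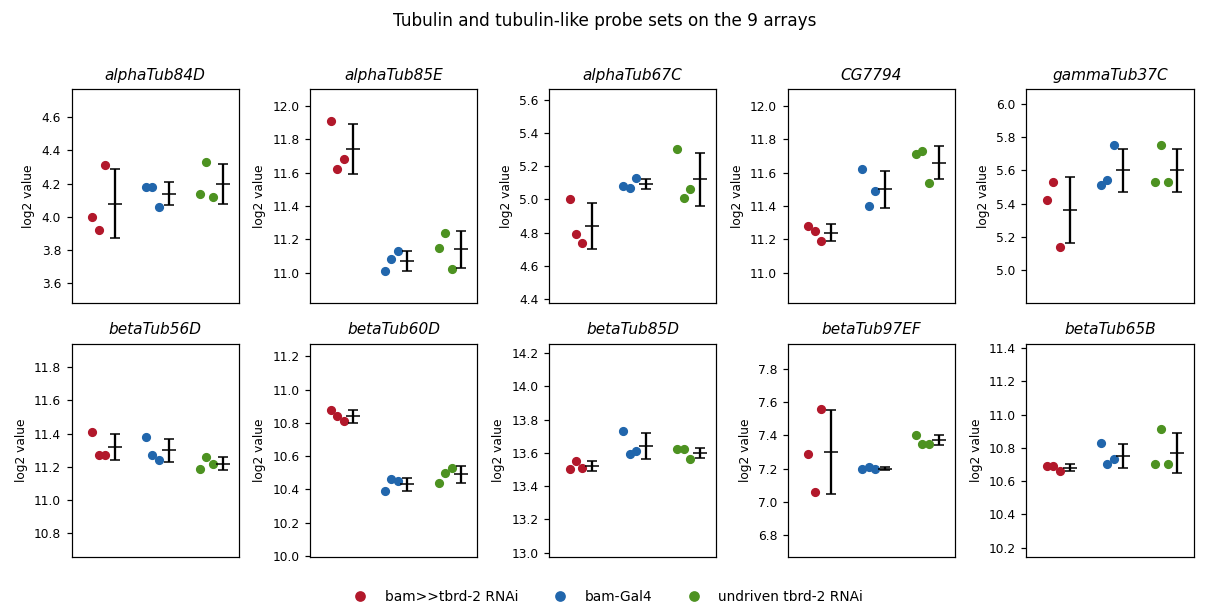
Log2 expression values of the 8 tubulin and 2 tubulin-like probe sets on the 3 arrays of each genotype, with 1 panel for each gene. Points are arrays, and the black mark and bar beside them give the mean and SD of the 3 arrays. Every panel spans the same height in log2 units around its own level, so differences can be compared between panels while levels cannot. *alphaTub85E* and *betaTub60D* show all 3 knockdown arrays well above the 6 control arrays.

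*alphaTub85E* encodes an alpha-tubulin known from somatic cells of the testis and from muscle. Its log2 value was 11.91, 11.62 and 11.68 on the knockdown arrays, 11.01, 11.08 and 11.13 in *bam*-Gal4 and 11.15, 11.24 and 11.02 in undriven testes. All 3 knockdown arrays lay above all 6 control arrays, with a gap of 0.38 between the lowest knockdown and the highest control value, and the 2 controls overlapped. The log2-fold change was 0.66 ± 0.09 (SE, n = 3 and 3; limma adjusted p = 0.00108; 95% interval 0.46 to 0.87) against *bam*-Gal4. Against undriven testes it was 0.60 ± 0.09 (SE; adjusted p = 0.00186; 95% interval 0.40 to 0.80). Knockdown array 1 was the highest, and without it the differences were 0.58 and 0.51 with adjusted p-values of 0.0033 and 0.00568. Without the 3 arrays high in neighbouring tissue they were 0.69 and 0.57, with adjusted p-values of 0.0141 and 0.0276. The controls differed by -0.06 (*bam*-Gal4 minus undriven; adjusted p = 0.872).

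*betaTub60D* encodes the beta-tubulin known from developing muscle and other mesodermal cells. It was at 10.88, 10.84 and 10.81 on the knockdown arrays, at 10.39, 10.46 and 10.45 in *bam*-Gal4 and at 10.44, 10.50 and 10.53 in undriven testes. The knockdown arrays stood 0.28 above the highest control array. Its arrays also agreed most closely of the 8 tubulin probe sets, with a pooled SD within genotypes of 0.04 where the median over all probe sets was 0.11. Against *bam*-Gal4 the log2-fold change was 0.41 ± 0.06 (SE; limma adjusted p = 0.00116; 95% interval 0.28 to 0.54), and against undriven testes it was 0.35 ± 0.06 (SE; adjusted p = 0.00259; 95% interval 0.23 to 0.48). Without the 3 arrays high in neighbouring tissue the values were 0.44 and 0.39 (adjusted p = 0.0191 and 0.0285). The controls differed by -0.06 (adjusted p = 0.802).

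Because both genes are known from somatic cells, markers of those cells were read on the same arrays. In whole testes, a change in the number of cells of a type and a change in RNA per cell cannot be told apart. Of 5 measured genes of cyst cells and the hub (*tj*, *eya*, *zfh1*, *chinmo* and *upd1*), 0 were called against both controls. Over all probe sets, 7.19% were higher and 5.88% lower against both, so little can be read from a count among so few genes. Their mean log2 level was 5.92 to 6.0 on the knockdown arrays, 5.78 to 5.93 in *bam*-Gal4 and 5.65 to 5.95 in undriven testes. The knockdown range thus overlapped those of the controls only narrowly. The list's median log2-fold change was 0.09 against *bam*-Gal4 and 0.15 against undriven testes. The transcription factor *tj*, which defines early cyst cells, lay at 4.54 to 4.70 on all arrays, and the hub ligand *upd1* at 3.75 to 4.23. Both were near the arrays' lower quartile of 4.19 to 4.31, whereas *eya* reached 7.05 to 7.99 and *chinmo* 7.78 to 8.58. The log2-fold changes of *eya* were 0.09 against *bam*-Gal4 and 0.38 against undriven testes (limma adjusted p = 0.736 and 0.13). Those of *chinmo* were 0.11 and 0.16 (adjusted p = 0.745 and 0.601). Those of *zfh1*, at 4.49 to 5.09, were 0.28 and 0.15 (adjusted p = 0.167 and 0.448), and those of *tj* were -0.02 and -0.06 (adjusted p = 0.861 and 0.563).

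Of 7 measured muscle genes, 0 were higher and 1 was lower against both controls, beside backgrounds of 7.19% and 5.88%. That gene was the actin *Act87E*, whose mean was 11.36 on the knockdown arrays, 11.65 in *bam*-Gal4 and 11.73 in undriven testes. Its probe set is of the type whose probes can match more than 1 transcript. The median log2-fold change of the muscle list was 0.0 against *bam*-Gal4 and -0.02 against undriven testes. Another actin of the list, *Act79B*, had log2-fold changes of 0.39 against *bam*-Gal4 (limma adjusted p = 0.0757) and 0.53 against undriven testes (adjusted p = 0.0236), so it passed as higher in 1 of the 2 comparisons. The mean level of the muscle list was 8.27 to 8.5 on the knockdown arrays, 8.08 to 8.55 in *bam*-Gal4 and 8.14 to 8.48 in undriven testes. For germ cells, 2 of 20 spermatocyte and spermatid genes were higher against both controls and 0 lower, near the backgrounds of 7.19% and 5.88%, and the list's mean level was 10.77 to 10.89 in knockdown testes, 10.59 to 10.78 in *bam*-Gal4 and 10.63 to 10.68 in undriven testes. The part of the testis cell composition in the rise of *alphaTub85E* and *betaTub60D* was not tested.

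*betaTub85D*, the testis beta-tubulin of the meiotic spindle and the axoneme, was near the top of the scale in every genotype. It was at 13.50, 13.55 and 13.51 on the knockdown arrays, 13.73, 13.59 and 13.61 in *bam*-Gal4 and 13.62, 13.62 and 13.56 in undriven testes, on arrays whose highest value was 14.49 to 14.53. The knockdown arrays were the 3 lowest, but only by 0.01 from the nearest control array. The log2-fold change was -0.12 ± 0.06 (SE; limma adjusted p = 0.201; 95% interval -0.26 to 0.01) against *bam*-Gal4 and -0.08 ± 0.06 (SE; adjusted p = 0.4; 95% interval -0.22 to 0.06) against undriven testes. On a linear scale these intervals span 0.835 to 1.01 and 0.861 to 1.04 times the control level. How far a signal this close to the top of the scale narrows differences was not tested.

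*betaTub56D*, the beta-tubulin used in most fly tissues, had group means of 11.32 ± 0.08, 11.30 ± 0.07 and 11.22 ± 0.04 (SD, n = 3 each) in knockdown, *bam*-Gal4 and undriven testes, and the arrays of the 3 genotypes overlapped. Its knockdown differed by 0.02 from *bam*-Gal4 (limma adjusted p = 0.874; 95% interval -0.13 to 0.17) and by 0.09 from undriven testes (adjusted p = 0.374; 95% interval -0.06 to 0.24). This probe set is of the type whose probes can match more than 1 transcript.

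*betaTub97EF*, a beta-tubulin known from the gut and other somatic tissues, was the member with the least even knockdown arrays. Its values were 7.29, 7.06 and 7.56 on them, against 7.20, 7.21 and 7.20 in *bam*-Gal4 and 7.40, 7.35 and 7.35 in undriven testes. The knockdown arrays spanned both controls, and the SD was 0.25 in knockdown against 0.01 and 0.03 in the controls. The log2-fold changes of 0.10 and -0.06 against *bam*-Gal4 and undriven testes had opposite signs and did not pass (limma adjusted p = 0.58 and 0.726). Without the 3 arrays high in neighbouring tissue they were -0.03 and -0.20 (adjusted p = 0.918 and 0.258). Knockdown array 3, the highest here, was also the array highest in gut transcripts. Undriven array 3, the highest of its genotype in gut transcripts, was at 7.35 here, not above the other undriven arrays. The part of gut RNA in these values was not tested.

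Of the tubulins known from the female germline, *alphaTub67C*, the maternal alpha-tubulin of eggs and early embryos, was at 5.0, 4.79 and 4.74 on the knockdown arrays, 5.08, 5.07 and 5.13 in *bam*-Gal4 and 5.30, 5.01 and 5.06 in undriven testes. All knockdown arrays were below all control arrays, again by no more than 0.01. Its log2-fold changes were -0.25 and -0.28 (unadjusted p = 0.026 and 0.0154), and neither passed after adjustment in the limma fit (adjusted p = 0.103 and 0.07). Without knockdown array 1 the difference from undriven testes was -0.36 and passed (adjusted p = 0.0393). Across all probe sets, 12.2% had all 3 knockdown arrays above all 6 control arrays, as *alphaTub85E* and *betaTub60D* did. The reverse held for 11.5% of all probe sets, with *betaTub85D* and *alphaTub67C* as the 2 members among them.

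*gammaTub37C*, the gamma-tubulin of the female germline, was at 5.42, 5.53 and 5.14 on the knockdown arrays, 5.51, 5.54 and 5.75 in *bam*-Gal4 and 5.53, 5.75 and 5.53 in undriven testes. The genotypes overlapped, and both log2-fold changes were -0.24 (limma adjusted p = 0.197 and 0.186). *alphaTub84D* encodes a ubiquitous alpha-tubulin. Its group means were 4.08 ± 0.21, 4.14 ± 0.07 and 4.20 ± 0.12 (SD, n = 3 each) in knockdown, *bam*-Gal4 and undriven testes, in the range of the arrays' lower quartile. Its log2-fold changes were -0.06 and -0.12 (adjusted p = 0.732 and 0.478). *alphaTub84D* is nearly identical to *alphaTub84B*, and its probe set is of the type that can match several transcripts, so what this low value measures is uncertain.

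**Figure D2:**
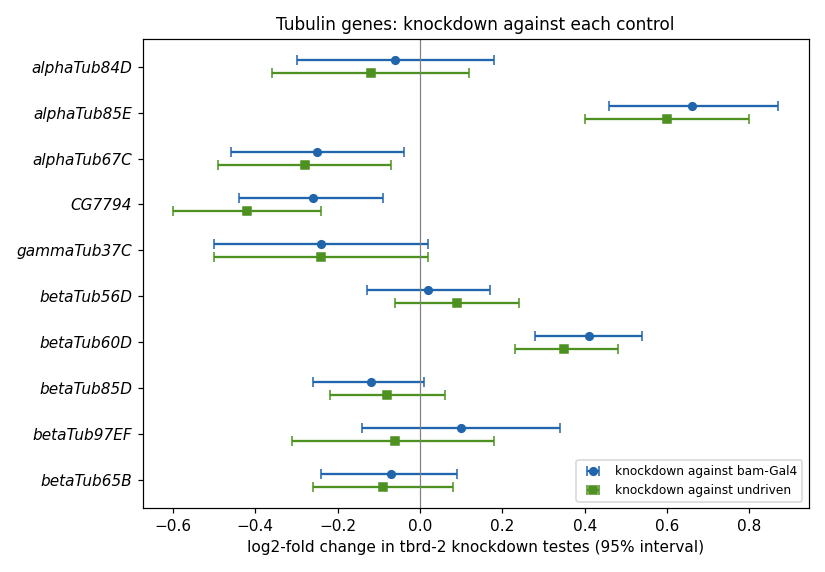
Log2-fold change of the tubulin and tubulin-like probe sets in knockdown testes against *bam*-Gal4 (circles) and undriven *tbrd-2RNAi* testes (squares), with 95% intervals from the limma fit. The intervals of *alphaTub85E* and *betaTub60D* lie above 0 in both comparisons, and those of *alphaTub67C* and *CG7794* below 0, although *alphaTub67C* did not pass after adjustment over all probe sets.

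The array also carried probe sets for 2 tubulin-like genes outside the list, *CG7794*, which is related to the alpha-tubulins, and *betaTub65B*, which is related to the beta-tubulins. *CG7794* was at 11.28, 11.25 and 11.19 on the knockdown arrays, 11.62, 11.40 and 11.49 in *bam*-Gal4 and 11.71, 11.73 and 11.54 in undriven testes. All knockdown arrays lay below all controls, and the log2-fold change was -0.26 against *bam*-Gal4 (limma adjusted p = 0.046) and -0.42 against undriven testes (adjusted p = 0.00557). The first of these calls was lost under 11 of 19 alternative settings, with adjusted p-values up to 0.127. Among them were the fits without knockdown array 2 or 3, *bam*-Gal4 array 1 or 3, and undriven array 1 or 2, at adjusted p-values of 0.0559 to 0.127. Without the 3 arrays high in neighbouring tissue the values were -0.29 and -0.46 (adjusted p = 0.0844 and 0.0209). *betaTub65B* was at 10.66 to 10.69 in knockdown and 10.70 to 10.91 in control testes, and its differences of -0.07 and -0.09 did not pass (adjusted p = 0.549 and 0.437).

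Likeness of pattern was read as Pearson's r over the 9 arrays among 6104 probe sets with 1 symbol and a range of at least 0.5, as a description without a test. The genes most like *alphaTub85E* were *ND-24L* (r = 0.991), *CG30082* (r = 0.987) and *CG13018* (r = 0.987), each with a higher mean in knockdown than in either control. The genes most like *betaTub85D* were *Cnot4* (r = 0.979), *Fbw5* (r = 0.973) and *CG30460* (r = 0.97), each with a lower mean in knockdown. The 9 arrays share 3 genotypes, so these correlations hold the differences between genotypes as well as the spread within them. The directions of these genes largely follow from choosing them by r and are no separate result. *betaTub85D* itself was not called.

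The tubulins act with other proteins, and 92 such genes in 5 lists were measured by their brightest probe set. Of these, 5 were higher and 6 lower in knockdown than in both controls, and their median log2-fold changes were 0.02 relative to *bam*-Gal4 and 0.03 relative to undriven testes. Over all probe sets, 7.19% were higher and 5.88% lower against both controls, so the counts for these genes were near that background. The ring complex and centrosome list, which serves gamma-tubulin, held 6 of these calls among 21 genes, 3 in each direction, beside backgrounds of 7.19% higher and 5.88% lower, and nothing particular to the list is read from so few genes.

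Flies have testis paralogues of 3 ring complex subunits, which are given here beside their general counterparts. The general *Grip84*, *Grip91* and *Grip128* are on chromosome X, whereas *t-Grip84* and *t-Grip128* are on arm 3L and *t-Grip91* is on arm 2L. Type of subunit and location on chromosome X or an autosome therefore cannot be told apart here, and the part of location was not tested. *t-Grip128* was at 8.58, 8.82 and 8.69 on the knockdown arrays, 9.69, 9.50 and 9.55 in *bam*-Gal4 and 9.53, 9.50 and 9.48 in undriven testes. Its general counterpart *Grip128* was at 7.95, 8.05 and 7.99, then 7.18, 7.10 and 7.05, then 7.37, 7.38 and 7.25 in the same order. In both genes the knockdown arrays were apart from all controls, below them for *t-Grip128* and above them for *Grip128*. The log2-fold change of *t-Grip128* was -0.88 and -0.81 (limma adjusted p = 0.000121 and 0.00019), and that of *Grip128* was 0.89 and 0.66 (adjusted p = 4.5e-05 and 0.000205). *t-Grip91* fell by 0.58 and 0.61 on the log2 scale (adjusted p = 0.0056 and 0.00457), and *Grip84* rose by 0.56 and 0.46 (adjusted p = 0.00577 and 0.0148).

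The other members of these pairs were named after their values were seen. *Grip91* rose by 0.32 and 0.34 (limma adjusted p = 0.0377 and 0.0308), a call against *bam*-Gal4 that 11 of 19 alternative settings lost, and *t-Grip84* had log2-fold changes of -0.17 and -0.28 that did not pass (adjusted p = 0.21 and 0.0534). The difference between a testis subunit and its counterpart was not itself tested. *Plp*, which encodes a protein of the pericentriolar material and was also named after its values were seen, fell by 0.43 and 0.40 (adjusted p = 0.0108 and 0.0148). Its other 2 probe sets were dim, with mean values of 3.82 and 3.9 where the arrays' lower quartile was 4.19 to 4.31, and were not alike. The first differed by -0.67 and -0.66 on the log2 scale and passed (adjusted p = 0.0064 and 0.00716). The second differed by -0.07 and -0.09 and did not pass (adjusted p = 0.595 and 0.474). None of *Grip84*, *Grip91* and *Plp* passed without the 3 arrays high in neighbouring tissue, where their larger adjusted p-values were 0.0907, 0.144 and 0.0782. Against undriven testes, *Grip84* also missed the threshold without undriven array 2 (adjusted p = 0.057), and *Plp* without knockdown array 1 or undriven array 2 (adjusted p = 0.0552 each). *Grip91* missed it against 1 or both controls without any 1 of 7 arrays, knockdown array 3 and *bam*-Gal4 array 1 being the exceptions (adjusted p up to 0.132).

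**Figure D3:**
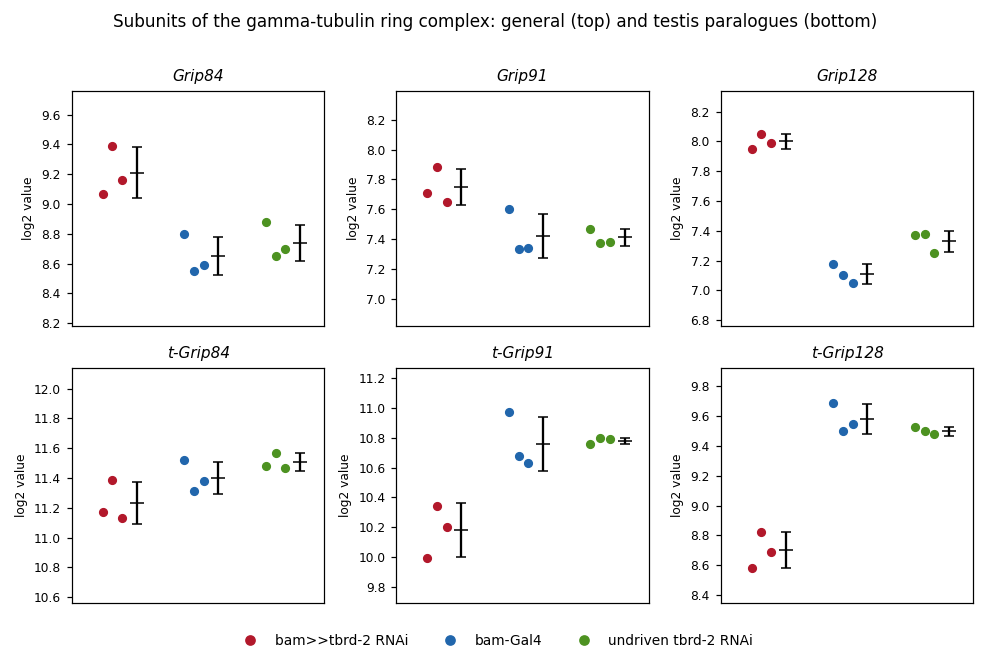
Log2 expression values of the general ring complex subunits (top) and their testis paralogues (bottom) on the 3 arrays of each genotype. Points are arrays, black marks and bars give mean and SD, and all panels span the same height in log2 units. The knockdown arrays lie above all control arrays for the 3 general subunits and below them for *t-Grip91* and *t-Grip128*, while *t-Grip84* overlaps with *bam*-Gal4. Of all probe sets, 12.2% lay above all control arrays in this way and 11.5% below. The gap was only 0.05 for *Grip91*, and neither *Grip84* nor *Grip91* passed without the 3 arrays high in neighbouring tissue. The general subunits are on chromosome X and the testis paralogues on autosomes.

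Of 16 genes that modify tubulin, 0 were higher and 2 lower against both controls, with backgrounds of 7.19% and 5.88%. *TTLL6A*, a tubulin tyrosine ligase-like enzyme of the family that adds glutamates to tubulin tails, was at 10.82, 10.88 and 10.97 on the knockdown arrays, 12, 11.78 and 11.67 in *bam*-Gal4 and 11.74, 11.87 and 11.76 in undriven testes. It fell by 0.93 and 0.90 on the log2 scale (limma adjusted p = 0.000196 and 0.000225), with no overlap between knockdown and control arrays. Its second probe set was lower by more than the limit of 1 (log2-fold change -1.07 against each control; adjusted p = 4.5e-05 and 4.97e-05). *TTLL4B*, of the same family, fell by 0.39 and 0.51 (adjusted p = 0.0049 and 0.00113), but did not pass against *bam*-Gal4 without the 3 arrays high in neighbouring tissue (adjusted p = 0.0703).

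The 3 remaining lists held 1 call each, a number near the backgrounds of 7.19% higher and 5.88% lower. Among 18 kinesins, 0 were higher and 1 lower against both controls. *Klp59C*, a kinesin that shortens microtubules at their ends, fell by 0.55 and 0.62 (limma adjusted p = 0.00134 and 0.000749). Of 16 genes for tubulin folding, 1 was higher and 0 lower. *mgr*, a prefoldin subunit that helps new tubulin to fold, rose by 0.43 and 0.40 (adjusted p = 0.00521 and 0.00687). The 21 genes that bind or sever microtubules held 1 higher and 0 lower. *CG15306*, a relative of the plus-end protein EB1, was at 13.44, 13.53 and 13.51 in knockdown, 12.60 to 12.80 in *bam*-Gal4 and 12.78 to 12.86 in undriven testes, a rise of 0.82 and 0.68 (adjusted p = 9.95e-05 and 0.000253). The other 11 genes that the naming rule took from these 4 lists (*lky*, *TTLL3B*, *nod*, *Kif3C*, *Klp59D*, *Pfdn2*, *CCT1*, *Tbca*, *mei-38*, *mud* and *futsch*) did not pass against both controls together. The larger of each gene's 2 adjusted p-values was between 0.0601 and 0.165. Against *bam*-Gal4 alone, *lky* and *mei-38* passed as higher (adjusted p = 0.000651 and 0.0314). Against undriven testes alone, *nod*, *Kif3C*, *Pfdn2* and *mud* did (adjusted p = 0.0281, 0.049, 0.0134 and 0.0423). For *lky* the controls also differed, by -0.46 (*bam*-Gal4 minus undriven; adjusted p = 0.022). Among the genes named from these 4 lists, *CG15306*, *lky*, *nod*, *mei-38*, *mud* and *futsch* are on chromosome X, as are the general ring complex subunits. The part of location was not tested for them either. By their brightest probe sets, 0 of the 92 genes reached the log2-fold limit of 1 against both controls.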

How the data were processed

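The authors made the deposited log2 values from the scanned arrays with the RMA method of the affy package, and the sources used here give no version of either. RMA corrects background, quantile-normalizes arrays and summarises each probe set. Whether it ran on these 9 arrays alone or together with arrays of other data sets is not stated for this table.

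Probe sets were named from the platform annotation, 13647 with 1 symbol, 402 with several and 4903 not listed, and symbols were updated through RefSeq's gene table of the fly assembly Release 6 plus ISO1 MT. Genotype means were fitted over all 9 arrays with limma 3.58.1 in R 4.3.3 (6 residual degrees of freedom), followed by eBayes and Benjamini-Hochberg adjustment over 18952 probe sets, without a filter on dim probe sets. The script was tested on simulated data. The number of arrays limits the precision. P-values measure the spread between separate pools of animals.

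The text names all 10 tubulin genes, both tubulin-like genes and, of each partner list, up to 4 genes with the smallest larger p against the 2 controls. Those beyond the rule are said to be named after their values were seen. Members and lists were chosen with earlier results of these data known. Sequences are not shown here.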

Additional observations from a re-analysis of the deposited data

How the results depend on the processing

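*alphaTub85E* and *betaTub60D* stayed above both controls with an adjusted p under 0.05 in all 19 alternative fits (other normalizations, filters on dim probe sets, variance models, a replicate block, and leaving out arrays). The log2-fold change of *alphaTub85E* ranged from 0.58 to 0.73 against *bam*-Gal4 and from 0.51 to 0.66 against undriven testes. With array weights, 4 tubulin probe sets were called against *bam*-Gal4, since *alphaTub67C* (adjusted p = 0.0443) and *gammaTub37C* (adjusted p = 0.0424) were added. *alphaTub67C* also passed against undriven testes without knockdown array 1 (adjusted p = 0.0393), which gave 3 calls there, and leaving out any other single array gave 2 calls. Against *bam*-Gal4, leaving out single arrays gave 2 calls each time, and between the controls 0. A log2-fold limit of 1 left 0 tubulin probe sets against *bam*-Gal4, 0 against undriven testes and 0 of the 11 partner genes. Without the 3 arrays high in neighbouring tissue 7 partner genes were called, and *Grip84*, *Grip91*, *Plp* and *TTLL4B* were lost. Leaving out single arrays gave 8 to 12 partner genes. Renewed quantile normalization gave 15. The share of all probe sets called under each alternative fit was not counted, so nothing particular to the tubulin or partner genes is read from these changes. With the replicate number as a replicate block, 2 tubulin probe sets were called against each control, 0 between the controls, and 11 partner genes, with *nod* gained and *Grip91* lost. Same-numbered arrays did not deviate together (correlations of -0.584 to 0.333), so the numbers were not taken as pairs.

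Uncalled values near 0 turned sign in some alternatives, for *betaTub56D* against *bam*-Gal4 in 3 of 19. Dim probe sets such as *alphaTub84D* limit what can be seen there.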

Other observations

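A second probe set of *mud*, a spindle-pole protein that binds microtubules, was 2.62 higher on the log2 scale in knockdown than in *bam*-Gal4 testes and 1.23 higher than in undriven testes (limma adjusted p = 2.04e-05 and 0.000638). The controls also differed there, by -1.39 (*bam*-Gal4 minus undriven; adjusted p = 0.0014). Another probe set of *mud* differed by 0.61 and 0.63 without passing (adjusted p = 0.0604 and 0.0522), and which transcripts of *mud* each probe set reads was not tested. The gene was singled out after its values were seen.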
